A study of Rattus norvegicus with 44 samples.

Results

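Zfp300, Mfsd3, Tmem8b, Lrriq1, Cnot2, Gstt1, Lrrcc1 and Ccdc112 were followed through the CA1 and dentate gyrus (DG) fields of the rat hippocampus. The 8 genes were chosen by their measured values: the mean log2(value + 1) of young rats given lipopolysaccharide (LPS), minus that of young rats given saline, had opposite signs in CA1 and DG. All 8 had a row in both deposited tables, which held 20003 rows for CA1 and 20050 for DG, and all 8 were among the 14637 genes tested in both regions. The 44 libraries of polyadenylated RNA came from 22 male rats, with CA1 and DG dissected from the same hippocampus of a rat. The young LPS group held 8 rats of 5 to 7 months, given 1 mg per kg of LPS into the peritoneum weekly for 7 weeks. The aged vehicle group held 6 rats of 14 to 16 months and the young vehicle group 8 rats of 5 to 7 months, and both were given saline on the same schedule. Tissue was taken 48 hours after the last injection, so all 3 groups shared the repeated injections. No aged rat received LPS, the strain is not given in the sources used here, and each library is a dissected block of mixed cells.

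Values are normalized reads, scaled by the authors within each region. CA1 libraries held 12292345 to 18749667 recovered reads and DG libraries 12130182 to 23519792. The labelled regions were checked with marker lists: the summed level of 9 CA1 pyramidal neuron genes was 29200 to 70362 in CA1 libraries, against 7141 to 21016 in DG libraries. That of 11 dentate granule cell genes was 2051 to 9324 in CA1 libraries and 8512 to 15726 in DG libraries. These dentate ranges overlapped, and the highest CA1 sum and the lowest DG sum were both those of young LPS rat 2543. In that rat the dentate markers did not separate the regions. The CA1 library of aged vehicle rat 2532 stood apart from the rest, with a score of 0.96 on the first principal component of all tested genes, where the other 21 CA1 libraries ran from -0.41 to 0.16. It also had the fewest CA1 reads and the lowest share of normalized reads in ribosomal protein genes, 0.534%. In such bulk tissue, fewer cells of a type and less RNA per cell cannot be told apart.

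LPS, a component of the outer membrane of Gram-negative bacteria, is sensed by Toll-like receptor 4 and starts an inflammatory response in the periphery that reaches the brain through cytokines and the vessel wall. CA1 pyramidal neurons and dentate granule cells are the principal cells at different stations of the hippocampal circuit, and they differ in their inputs and in their gene expression. The 8 genes share no single pathway. Cnot2 encodes a subunit of the CCR4-NOT complex, which shortens the poly(A) tails of messenger RNAs. Zfp300 is named as a zinc finger protein gene, a family with many DNA-binding members. Lrrcc1 encodes a leucine-rich repeat and coiled-coil protein found at centrioles in human cells, and Ccdc112 a coiled-coil protein placed at centriolar satellites in human cells. Lrriq1 is named for leucine-rich repeats and an IQ motif. Mfsd3 belongs to the major facilitator superfamily of membrane transporters, Tmem8b encodes a transmembrane protein, and Gstt1 encodes a theta-class glutathione transferase, which joins glutathione to reactive small molecules.

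The DNA around the transcription start is shown for the 4 members with an entry in the RefSeq promoter table of build GRCr8, as the sequence context of genes that differed between regions in the same rats. Each run holds 250 bases before and 50 bases after an annotated start, read 5′ to 3′ on the gene's strand. Capitals mark CCAAT and GGGCGG on either strand (ATTGG and CCGCCC on the other). The stretches are chr7:54107911-54108210 (minus strand) for Cnot2, chrX:3452743-3453042 (plus strand) for the first of the annotated starts of Zfp300, chr18:41218909-41219208 (minus strand) for Ccdc112 and chr5:62715341-62715640 (plus strand) for Tmem8b.
Cnot2: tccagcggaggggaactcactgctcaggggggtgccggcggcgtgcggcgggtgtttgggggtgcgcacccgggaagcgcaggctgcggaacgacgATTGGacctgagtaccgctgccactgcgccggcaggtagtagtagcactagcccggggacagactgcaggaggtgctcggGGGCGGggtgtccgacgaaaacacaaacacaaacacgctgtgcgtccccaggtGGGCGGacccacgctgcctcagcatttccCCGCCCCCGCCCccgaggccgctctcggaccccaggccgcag
Zfp300: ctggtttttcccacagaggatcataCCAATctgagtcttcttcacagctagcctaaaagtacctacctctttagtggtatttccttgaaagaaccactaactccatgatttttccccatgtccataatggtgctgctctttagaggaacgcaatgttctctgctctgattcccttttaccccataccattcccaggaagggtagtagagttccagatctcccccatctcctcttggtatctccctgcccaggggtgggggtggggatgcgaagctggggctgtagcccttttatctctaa
Ccdc112: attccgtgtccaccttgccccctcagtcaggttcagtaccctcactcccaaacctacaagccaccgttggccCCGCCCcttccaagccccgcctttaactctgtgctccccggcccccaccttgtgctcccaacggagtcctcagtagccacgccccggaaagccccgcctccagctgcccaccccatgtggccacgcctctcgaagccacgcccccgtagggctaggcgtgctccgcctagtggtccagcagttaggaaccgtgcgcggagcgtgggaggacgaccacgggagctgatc
Tmem8b: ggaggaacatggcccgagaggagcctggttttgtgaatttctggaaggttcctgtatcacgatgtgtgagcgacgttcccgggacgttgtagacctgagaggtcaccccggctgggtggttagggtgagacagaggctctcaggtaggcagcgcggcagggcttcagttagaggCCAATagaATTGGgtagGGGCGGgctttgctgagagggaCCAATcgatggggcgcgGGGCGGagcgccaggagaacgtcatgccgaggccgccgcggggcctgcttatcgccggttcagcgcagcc
Mfsd3, Lrriq1, Gstt1 and Lrrcc1 are named only. CCAAT was found near a start of Cnot2, Zfp300 and Tmem8b, and in 37.5% of all 33469 promoters of the table. GGGCGG was found in Cnot2, Ccdc112 and Tmem8b, and in 33.1% of all promoters. The Cnot2 stretch was 70% G or C, Ccdc112 66.3%, Tmem8b 62.7% and Zfp300 48.3%, against a median of 51.7% over the table. TGACG, searched on both strands, was found in Tmem8b and in 21.2% of promoters, and an NF-kB consensus in Ccdc112 and in 4.18% of promoters. CACGTG, in 6.42% of promoters, and an RFX X-box, in 0.607%, were in none of the 4. These matches describe letters in a window, and motifs can overlap. Tmem8b, whose mean was higher with LPS in CA1, and Cnot2, whose mean was lower, held both of the marked motifs.

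With LPS, 5 of the 8 genes had a lower mean in CA1 and a higher mean in DG (Zfp300, Lrriq1, Cnot2, Lrrcc1 and Ccdc112), and 3 had the reverse (Mfsd3, Tmem8b and Gstt1). These signs chose the genes, so the LPS changes are a description and carry no test. Changes are young LPS minus young vehicle on the log2(value + 1) scale, with the standard error (SE) of the fit, and this scale understates the change of genes with few reads. Opposite signs were common in these tables: 9513 of 14637 genes (65.0%) had them, 4498 lower in CA1 and higher in DG, and 5015 the reverse. Ranked among those 9513 by the smaller of their changes in CA1 and DG, Gstt1 stood at 88 and Zfp300 at 125, while Mfsd3 stood at 1515 and Cnot2 at 1644. Many unchosen genes thus had larger opposite changes than Mfsd3 or Cnot2. The stated rule gives no minimum size and does not say how the 8 were taken from the 9513. As background, an adjusted p of 0.05 (limma) was passed by 0 of 14915 genes (0%) in CA1 and 2 of 14904 (0.0134%) in DG, none a member. An unadjusted p below 0.05 was found for 1024 and 1122 genes. In CA1 edgeR called 0 genes and DESeq2 1.

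**Figure D1:**
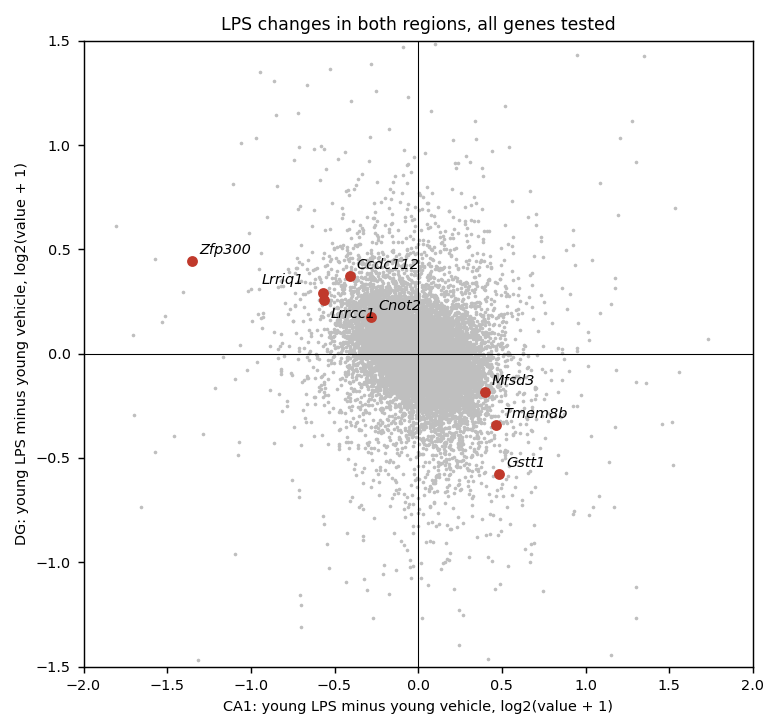
The LPS change (young LPS minus young vehicle, log2(value + 1)) in CA1 on the horizontal axis is plotted against that in DG on the vertical axis, with each gene tested in both regions in grey and the 8 members in red; 15 genes lie outside the axes. Zfp300 sits farthest to the left of the members (-1.35 in CA1), Gstt1 lowest (-0.58 in DG), and Mfsd3 and Cnot2 nearest to the horizontal axis.

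Cnot2 carried the most reads of the 5 genes with a lower CA1 mean. In CA1 it had 420 to 623 normalized reads in young LPS rats (median 508), 487 to 760 in aged vehicle rats (median 568) and 462 to 699 in young vehicle rats (median 652). All 8 LPS libraries lay below the young vehicle median, although the ranges overlapped, and the change was -0.28 (SE 0.11). In DG it had 615 to 822 normalized reads in young LPS rats (median 696), 591 to 676 in aged vehicle rats (median 614) and 527 to 747 in young vehicle rats (median 604), a change of 0.18 (SE 0.08). All 8 LPS libraries lay above the young vehicle median there. Cnot2 thus had small changes with no LPS library on the other side of the young vehicle median in either region.

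Zfp300 had the largest LPS change of the 8 in CA1 and also the fewest reads. In CA1 it had 3.12 to 19.7 normalized reads in young LPS rats (median 10.4), 11.3 to 40.8 in aged vehicle rats (median 17.1) and 15.9 to 40.1 in young vehicle rats (median 23.3). Of the 8 LPS libraries, 7 lay below the lowest young vehicle library, and the change was -1.35 (SE 0.32). These values rest on 3 to 17 recovered reads per library in young LPS rats and 16 to 49 in young vehicle rats, so counting error, which reflects read sampling alone, is large. In DG it had 14.6 to 46.6 normalized reads in young LPS rats (median 23.0), 13.3 to 24.4 in aged vehicle rats (median 19.2) and 10.2 to 38.3 in young vehicle rats (median 18.6), a change of 0.44 (SE 0.29). The DG values of the LPS rats lay in separate ranges: rats 2403, 2543 and 2573 had 42.2, 45.6 and 46.6 normalized reads, while the other 5 had 14.6 to 23.5.

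The centriole-associated genes had changes of intermediate size. Lrrcc1 in CA1 had 37.5 to 108 normalized reads in young LPS rats (median 80.1), 83.5 to 280 in aged vehicle rats (median 121) and 87.6 to 150 in young vehicle rats (median 109), a change of -0.56 (SE 0.22). All 8 LPS libraries were below the young vehicle median, and the aged value of 280 is that of rat 2532. In DG Lrrcc1 had 93.3 to 232 normalized reads in young LPS rats (median 154), 106 to 126 in aged vehicle rats (median 118) and 95.2 to 162 in young vehicle rats (median 120), a change of 0.26 (SE 0.15). The LPS group spanned more than the range of both other groups there. Ccdc112 in CA1 had 91.9 to 139 normalized reads in young LPS rats (median 113), 101 to 241 in aged vehicle rats (median 129) and 106 to 188 in young vehicle rats (median 163), a change of -0.41 (SE 0.16). In DG Ccdc112 had 101 to 256 normalized reads in young LPS rats (median 158), 115 to 209 in aged vehicle rats (median 133) and 99.6 to 149 in young vehicle rats (median 122), a change of 0.37 (SE 0.15). Of the 8 LPS libraries, 6 lay above the highest young vehicle library in DG.

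Lrriq1 had few reads in both regions. In CA1 it had 14.4 to 31.2 normalized reads in young LPS rats (median 23.3), 27.2 to 36.5 in aged vehicle rats (median 31.1) and 22.5 to 49.9 in young vehicle rats (median 34.8), a change of -0.57 (SE 0.19). All 8 LPS libraries were below the young vehicle median. In DG it had 23.1 to 50.7 normalized reads in young LPS rats (median 30.5), 22.5 to 43.4 in aged vehicle rats (median 27.1) and 19.8 to 35.5 in young vehicle rats (median 25.6), a change of 0.29 (SE 0.22). The DG change was little larger than its SE, and 3 of 8 LPS libraries were below the young vehicle median.

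Mfsd3 and Tmem8b, the genes of membrane proteins, had higher CA1 means with LPS. Mfsd3 in CA1 had 206 to 324 normalized reads in young LPS rats (median 238), 160 to 192 in aged vehicle rats (median 171) and 166 to 234 in young vehicle rats (median 185), a change of 0.40 (SE 0.10). All 8 LPS libraries lay above the young vehicle median and above the highest aged library. In DG Mfsd3 had 156 to 256 normalized reads in young LPS rats (median 194), 171 to 206 in aged vehicle rats (median 201) and 185 to 272 in young vehicle rats (median 224), a change of -0.18 (SE 0.11). Tmem8b in CA1 had 632 to 1251 normalized reads in young LPS rats (median 950), 597 to 799 in aged vehicle rats (median 644) and 596 to 811 in young vehicle rats (median 649), a change of 0.46 (SE 0.13). The LPS libraries were spread widely, and 6 of 8 lay above the highest young vehicle library. In DG Tmem8b had 504 to 864 normalized reads in young LPS rats (median 667), 658 to 873 in aged vehicle rats (median 745) and 772 to 1006 in young vehicle rats (median 832), a change of -0.34 (SE 0.10). There 6 of 8 LPS libraries lay below the lowest young vehicle library.

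Gstt1, the glutathione transferase gene, had changes of like size in both regions. In CA1 it had 50.6 to 98.9 normalized reads in young LPS rats (median 72.4), 33.5 to 70.4 in aged vehicle rats (median 56.3) and 24.5 to 90.3 in young vehicle rats (median 53.1), a change of 0.48 (SE 0.21). The young vehicle libraries spanned most of the LPS range. In DG it had 22.9 to 54.0 normalized reads in young LPS rats (median 40.6), 52.8 to 73.3 in aged vehicle rats (median 60.4) and 38.5 to 118 in young vehicle rats (median 52.4), a change of -0.58 (SE 0.20). Of the 8 LPS libraries, 7 were below the young vehicle median in DG and 7 were below the lowest aged library. Young LPS and young vehicle ranges overlapped for all 8 genes in both regions, where 2 genes (0.0134%) did not overlap in CA1 and 6 (0.0403%) in DG.

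**Figure D2:**
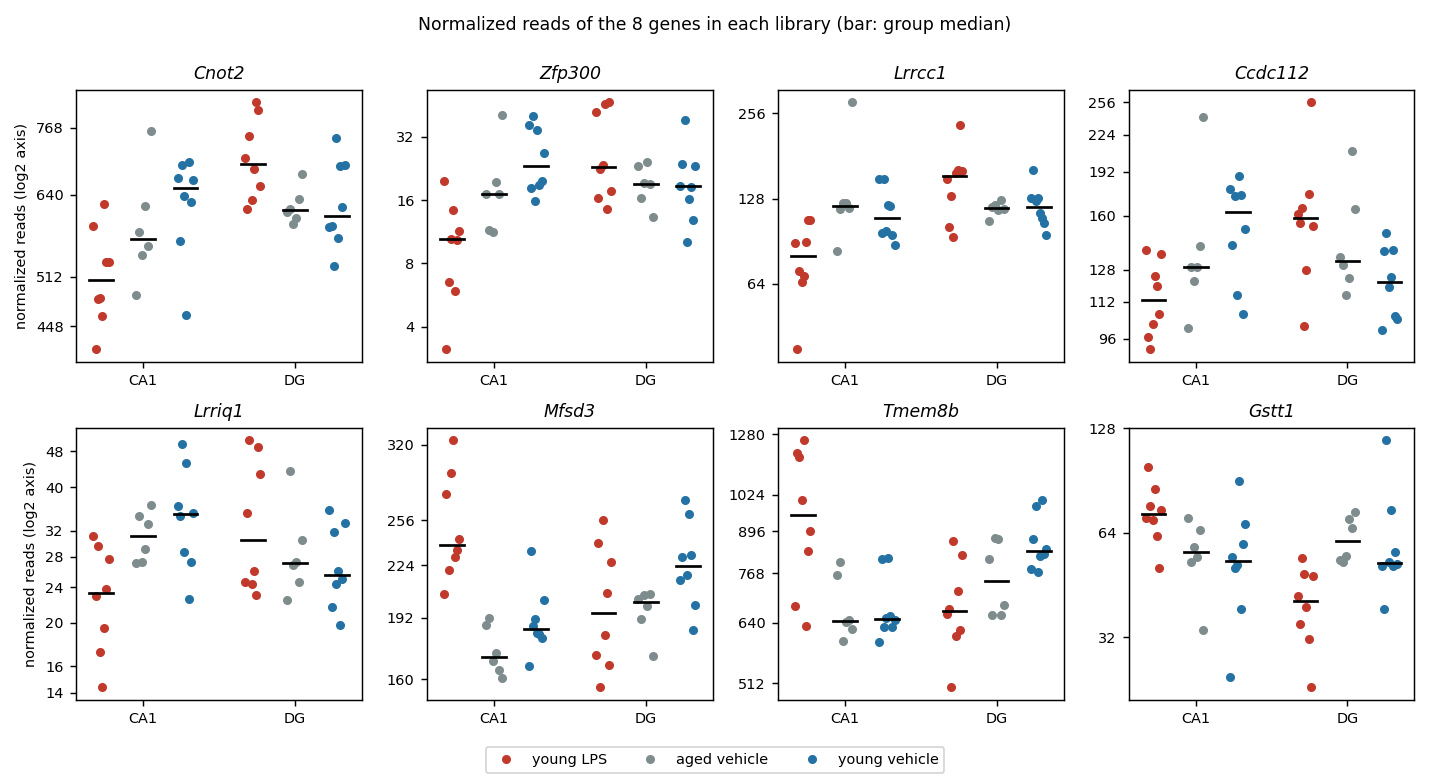
Normalized reads of each gene on a log2 axis, with a point for each library of young LPS (red), aged vehicle (grey) and young vehicle (blue) rats in CA1 and DG, and a bar at the group median. In CA1 the LPS medians of Cnot2, Zfp300, Lrrcc1, Ccdc112 and Lrriq1 lie below the young vehicle medians and those of Mfsd3, Tmem8b and Gstt1 above them, with the order turned round in DG.

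Because both regions came from the same rats, the CA1 minus DG difference of log2(value + 1) was also taken within each rat. The tables were normalized separately, so a single difference carries an unknown offset, but the offset is shared by the groups. Counts of rats by which value was lower therefore compare groups, and do not show which region held more of the RNA. Zfp300 had differences of -2.08 to -0.59 in young LPS rats (median -1.38), -0.73 to 1.55 in aged vehicle rats (median -0.37) and -0.36 to 1.04 in young vehicle rats (median 0.39). Its CA1 value was the lower in 8 of 8 LPS rats, 5 of 6 aged rats and 1 of 8 young vehicle rats. Gstt1 had differences of 0.50 to 1.47 in young LPS rats (median 0.85), -1.11 to 0.39 in aged vehicle rats (median -0.01) and -1.20 to 0.49 in young vehicle rats (median 0.02). Mfsd3 had differences of 0.10 to 0.83 in young LPS rats (median 0.23), -0.32 to 0.00 in aged vehicle rats (median -0.15) and -0.54 to 0.03 in young vehicle rats (median -0.26). For these 3 genes the young LPS and young vehicle rats did not overlap, although for Gstt1 they nearly met.

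The other 5 genes overlapped in a few rats. Lrriq1 had the CA1 value below the DG value in 7 of 8 young LPS rats, 1 of 6 aged vehicle rats and 0 of 8 young vehicle rats. Tmem8b had the CA1 value above the DG value in 7 of 8 young LPS rats, 1 of 6 aged vehicle rats and 0 of 8 young vehicle rats. Cnot2 had the lower value in CA1 in 8 of 8 young LPS, 4 of 6 aged vehicle and 4 of 8 young vehicle rats. For Lrrcc1 the CA1 value was the lower in 8 of 8, 3 of 6 and 4 of 8. For Ccdc112 it was lower in 7 of 8 young LPS rats, 3 of 6 aged vehicle rats and 1 of 8 young vehicle rats. The unknown offset applies to these counts too. The difference between regions in the LPS change was -1.79 (SE 0.29) for Zfp300, -0.86 (SE 0.17) for Lrriq1, -0.82 (SE 0.20) for Lrrcc1, -0.78 (SE 0.19) for Ccdc112 and -0.46 (SE 0.11) for Cnot2. It was 1.06 (SE 0.25) for Gstt1, 0.81 (SE 0.18) for Tmem8b and 0.58 (SE 0.12) for Mfsd3. Of 14637 genes, 7 (0.0478%) did not overlap between young LPS and young vehicle rats, and 1 (0.00683%) passed an adjusted p of 0.05 (limma), which was Zfp300. As the signs that chose the genes make up this difference, those counts and the pass of Zfp300 are context. Nothing is read from them.

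**Figure D3:**
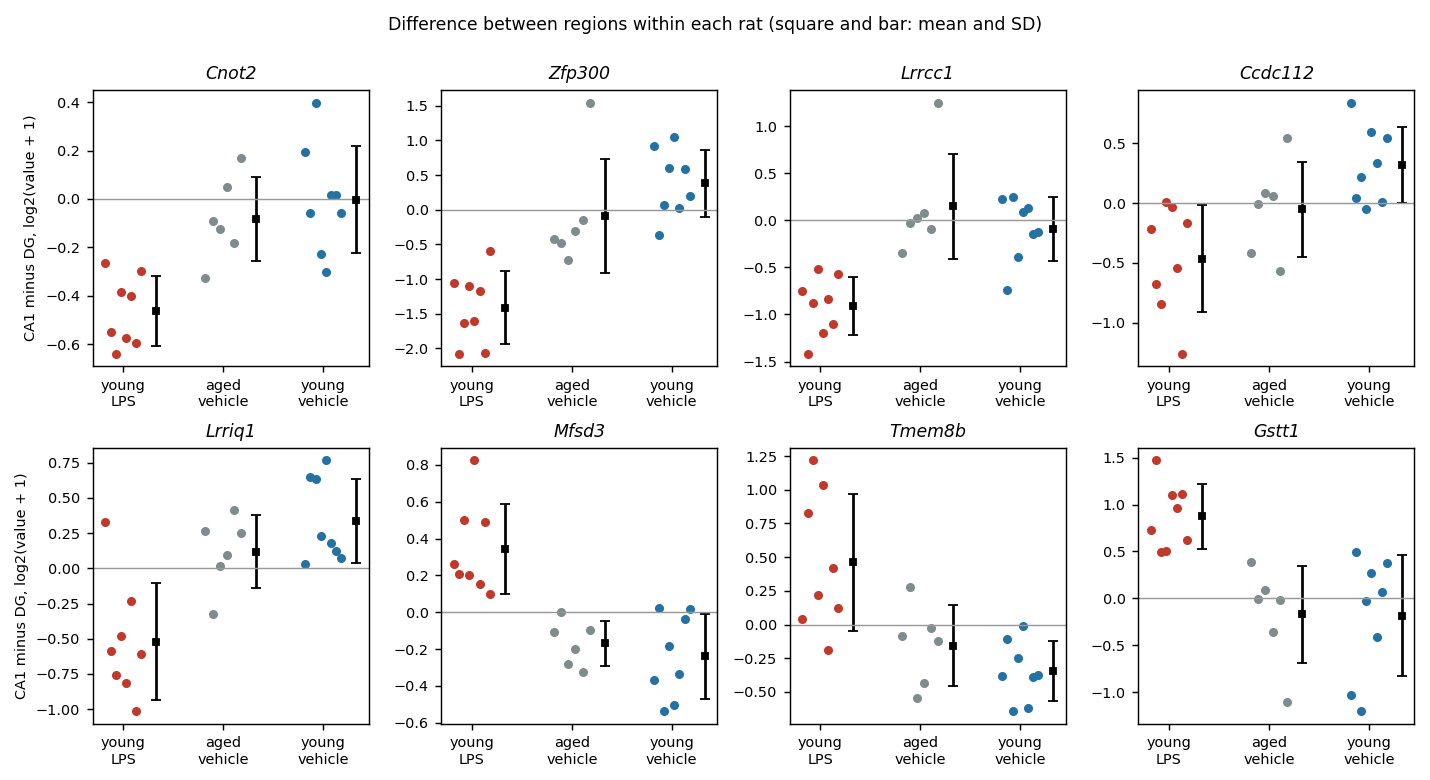
The within-rat difference, CA1 minus DG on the log2(value + 1) scale, with a point for each rat of the young LPS, aged vehicle and young vehicle groups and a square with a bar for the mean and SD. The young LPS rats lie below the young vehicle rats for Zfp300 and above them for Mfsd3 and Gstt1, and the aged rats lie among the young vehicle rats in part for all 8 genes.

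Whether age changed the same genes is a contrast that the choice did not use, although the young vehicle libraries enter both. None of the 8 genes passed the test for aged vehicle minus young vehicle (limma, adjusted over all genes of the region): their smallest adjusted p was 0.485 in CA1, for Zfp300, and 1.00 in DG. Over all genes 2 of 14915 (0.0134%) passed in CA1 and 2 of 14904 (0.0134%) in DG, with 1882 and 446 at an unadjusted p below 0.05, none of them a member. Zfp300 averaged 19.5 ± 10.9 normalized reads in aged vehicle rats (SD, n = 6) and 26.3 ± 9.5 in young vehicle rats (SD, n = 8) in CA1, a change of -0.47 (SE 0.34) that was -0.70 (SE 0.33) without rat 2532. Lrrcc1 averaged 141 ± 69.7 normalized reads in aged vehicle rats and 115 ± 24.7 in young vehicle rats in CA1, a change of 0.21 (SE 0.23) that was -0.0047 (SE 0.21) without rat 2532. The remaining CA1 changes with age ran from -0.13 for Mfsd3 and Ccdc112 to 0.08 for Gstt1. Without rat 2532 they ran from -0.29 (SE 0.15) for Ccdc112 to 0.21 (SE 0.22) for Gstt1, with -0.16 (SE 0.11) for Cnot2, otherwise -0.09.

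In DG the changes with age ran from -0.20 (SE 0.12) for Mfsd3 and -0.19 (SE 0.11) for Tmem8b to 0.24 (SE 0.16) for Ccdc112, with 0.01 (SE 0.31) for Zfp300. The SE ran from 0.087 for Cnot2 in DG to 0.34 for Zfp300 in CA1, and a missed threshold does not show that a gene was unchanged. The test of the difference itself, the age change in CA1 minus that in DG within rats, called 0 of 14637 genes (0%, limma), with 763 at an unadjusted p below 0.05. The members' differences ran from -0.47 (SE 0.31) for Zfp300 and -0.37 (SE 0.21) for Ccdc112 to 0.24 (SE 0.21) for Lrrcc1, and the smallest adjusted p was 0.735. Without rat 2532 these were -0.80 (SE 0.25) for Zfp300, -0.49 (SE 0.20) for Ccdc112, 0.02 (SE 0.18) for Lrrcc1 and 0.20 (SE 0.26) for Gstt1, otherwise 0.01, again with no gene called. Without rat 2523 Lrrcc1 had 0.14. Aged and young vehicle ranges overlapped for all 8 genes in CA1, where 35 genes (0.235%) did not overlap, in DG, where 11 (0.0738%) did not, and in the within-rat difference, where 7 (0.0478%) did not.

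The study also set young LPS against aged vehicle rats. These groups differed in both age and treatment, which cannot be told apart in this contrast. The young LPS libraries of this contrast took part in the choice of the genes, so it is not independent of it. In CA1 of young LPS rats Mfsd3 was higher by 0.53 (SE 0.11) and Tmem8b by 0.46 (SE 0.14). Lrrcc1 was lower by 0.78 (SE 0.23), and each had an adjusted p of 0.049 by limma. The other 5 genes did not pass, with -0.88 (SE 0.34) for Zfp300, -0.44 (SE 0.21) for Lrriq1, 0.41 (SE 0.22) for Gstt1, -0.28 (SE 0.17) for Ccdc112 and -0.19 (SE 0.11) for Cnot2. Without rat 2532 these were -0.65 for Zfp300, -0.40 for Lrriq1, 0.27 for Gstt1, -0.12 for Ccdc112 and -0.12 for Cnot2. With the first principal component of the CA1 libraries in the fit, an alternative chosen after seeing the data, the last 3 changed sign: Gstt1 was -0.070 (SE 0.21), Ccdc112 0.050 (SE 0.16) and Cnot2 0.078 (SE 0.089). Zfp300 was -0.31 in that fit. Over all genes 1302 of 14915 (8.73%) passed, 521 higher and 781 lower, so 3 of 8 members stood beside a large background. Mfsd3 was the member whose groups did not overlap, as in 125 genes (0.838%).

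All 3 calls sat just under the threshold. They ended without the CA1 library of rat 2532, where the adjusted p was 0.119 for Mfsd3, 0.122 for Tmem8b and 0.131 for Lrrcc1, and without any one of 14 other rats (2404, 2408, 2410, 2415, 2420, 2526, 2527, 2531, 2543, 2571, 2717, 2722, 2728 and 2731). Lrrcc1 was -0.56 (SE 0.21) without rat 2532. With the first component in the fit the calls also ended, at 0.38 for Mfsd3, 0.22 for Tmem8b and -0.17 for Lrrcc1. In DG 2 of 14904 genes (0.0134%) passed and no member did, and 66 genes (0.443%) but no member did not overlap. Gstt1 had the largest DG change, -0.64 (SE 0.22, adjusted p = 0.363 by limma), and all 8 LPS libraries lay below the aged median. The DG changes of the others ran from -0.16 for Tmem8b to 0.44 for Zfp300.

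Within groups, the genes varied together along the same split. The mean of each group was subtracted from log2(value + 1), which removes the group differences that chose the genes, and Pearson's r of the remaining deviations was taken over the 22 libraries of a region. In CA1 the 10 pairs among Zfp300, Lrriq1, Cnot2, Lrrcc1 and Ccdc112 had a mean r of 0.48, the 3 pairs among Mfsd3, Tmem8b and Gstt1 had 0.51, and the 15 pairs between these sets had -0.39. The closest pairs in CA1 were Lrrcc1 with Ccdc112 (0.76) and Zfp300 with Ccdc112 (0.70), and the most opposed was Cnot2 with Tmem8b (-0.74). Without rat 2532 the 3 means were 0.37, 0.50 and -0.34. The points of each r share libraries, depth and scaling, so these values are a description. The same libraries gave the signs that split the genes, so subtracting the means does not make these values independent of the choice.

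In DG the same means were smaller, 0.19, 0.37 and -0.24. Lrrcc1 with Ccdc112 (0.62) and Mfsd3 with Tmem8b (0.67) were the closest pairs there, and Cnot2 with Mfsd3 the most opposed (-0.62). Zfp300 with Cnot2 had r = 0.36 in CA1 and -0.23 in DG, so the sets were less uniform in DG.

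**Figure D4:**
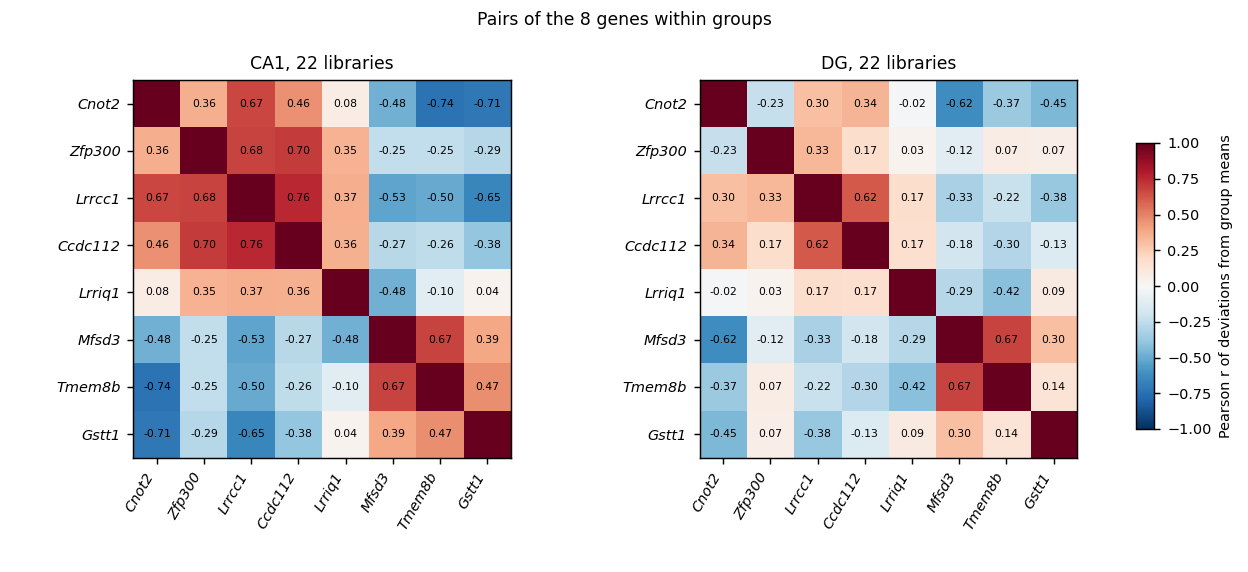
Pearson's r between each pair of the 8 genes, from deviations of log2(value + 1) from the group means over 22 libraries, in CA1 (left) and DG (right); red is positive and blue negative. The first 5 genes and the last 3 form blocks that are positive within (mean 0.48 and 0.51 in CA1) and negative between (mean -0.39), and paler in DG.

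The deviations of a rat in CA1 and in DG were then compared. Over the 22 rats, r between the CA1 and DG deviations from the group means was 0.55 for Lrriq1, 0.50 for Lrrcc1, 0.48 for Zfp300, 0.47 for Cnot2, 0.35 for Mfsd3, 0.22 for Ccdc112, 0.19 for Gstt1 and -0.25 for Tmem8b. The median of the 8 was 0.41, against a median of 0.03 over all 14637 genes, whose quartiles were -0.13 and 0.20. The same rats were used to choose the genes, so this comparison is a description and not independent of the choice. Without rat 2532 the r of Zfp300 was 0.65, that of Lrrcc1 0.61 and that of Ccdc112 0.17. A rat deviated to the same side in both regions in 18 of 22 rats for Lrriq1, 15 for Cnot2 and Ccdc112, 13 for Zfp300 and Lrrcc1, 11 for Tmem8b and Gstt1 and 10 for Mfsd3. The LPS and vehicle means thus differed in opposite directions in CA1 and DG, while r between the deviations around those means was positive for 7 of the 8 genes.

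The CA1 deviations also moved with the main axis of variation of the libraries. The first principal component of all tested genes held 32.5% of the variance in CA1 and 14.6% in DG. Its CA1 score ran from -0.41 to 0.01 in young LPS rats (median -0.13), from -0.06 to 0.96 in aged vehicle rats (median 0.11) and from -0.26 to 0.16 in young vehicle rats (median 0.01). Over the 22 CA1 libraries, r with that score was 0.84 for Cnot2, 0.83 for Lrrcc1, 0.66 for Ccdc112, 0.57 for Zfp300 and 0.22 for Lrriq1, and -0.71 for Gstt1, -0.58 for Tmem8b and -0.54 for Mfsd3. The score includes these genes among the 14915. As the component held 32.5% of the CA1 variance, it is an axis shared by many genes. The r of the other tested genes with the score was not taken. Whether the values of these genes stand out from the rest was thus not tested. Without rat 2532 the values ran from 0.16 for Lrriq1 to 0.86 for Cnot2 in the first set and from -0.77 for Tmem8b to -0.64 for Mfsd3 in the second.

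With the score as a term of the fit, all LPS changes kept their signs. In CA1 they were -1.14 for Zfp300, -0.53 for Lrriq1, -0.34 for Lrrcc1, -0.29 for Ccdc112, -0.18 for Cnot2, 0.37 for Tmem8b, 0.34 for Mfsd3 and 0.31 for Gstt1. Cnot2, Lrrcc1 and Gstt1 were smaller by more than 1.5 times. In DG r with the first component of that region had mixed signs in the first set, from -0.49 for Cnot2 to 0.47 for Lrriq1, and reached 0.59 for Gstt1. The CA1 share of ribosomal protein genes ran from 0.817% to 1.13% in young LPS rats, from 0.534% to 0.909% in aged vehicle rats and from 0.833% to 1.40% in young vehicle rats. Its r was 0.32 to 0.48 with the 3 genes and -0.54 to 0.02 with the 5 (0.31 to 0.37 and -0.43 to 0.10 without rat 2532). In DG its r did not follow this split. There it ran from -0.16 for Tmem8b to 0.54 for Gstt1 in the 3 genes. In the 5 genes it ran from -0.29 for Cnot2 to 0.58 for Ccdc112. The part of the ribosomal share in the changes was not tested.

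**Figure D5:**
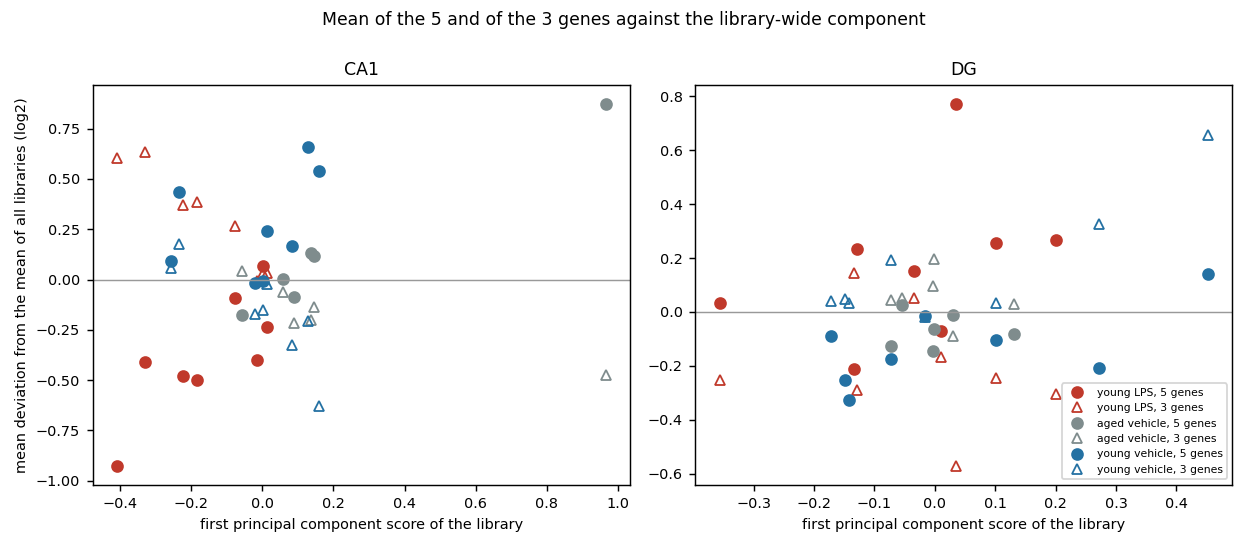
The mean deviation of log2(value + 1) from the mean of all libraries of a region, for the 5 genes with a lower CA1 mean in LPS rats (filled circles) and the 3 with a higher one (open triangles), against the first principal component score of each library in CA1 (left) and DG (right), coloured by group. In CA1 the means of the 5 genes run upward and those of the 3 genes downward along the score, with aged rat 2532 at 0.96. In DG the highest mean of the 3 genes, 0.65, is that of young vehicle rat 2526, at a score of 0.45.

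Dissection was followed by a score, the mean log2 level of CA1 pyramidal markers minus that of dentate granule markers. In CA1 it ran from 1.14 to 4.11 in young LPS rats (median 2.25), from 1.78 to 3.04 in aged vehicle rats (median 2.19) and from 1.29 to 2.41 in young vehicle rats (median 1.78). In DG it ran from -2.48 to 0.29 in young LPS rats (median -0.75), from -2.41 to 0.14 in aged vehicle rats (median -0.38) and from -2.64 to 0.29 in young vehicle rats (median -1.47). Among the members Lrriq1 had the highest r with it in CA1 (0.52) and Gstt1 in DG (0.43). The LPS changes kept their signs with the score in the fit. For the cilia-bearing ependymal cells, which express many centriole and cilia genes, the summed level of 28 markers in CA1 ran from 1146 to 1693 in young LPS rats, from 1491 to 2182 in aged vehicle rats and from 1377 to 1698 in young vehicle rats, and its part in the values of Lrrcc1, Ccdc112 and Lrriq1 was not tested. Mcidas, a regulator of the multiciliated fate, was the 1 marker of these at 0 in all young LPS and aged vehicle CA1 libraries. It is a gene at the floor, and nothing is read from it. The median sum of the list in CA1 was 1443 in young LPS, 1749 in aged vehicle and 1458 in young vehicle rats. In the choroid plexus list, 13 markers summed to 12923 in the CA1 library of young vehicle rat 2526, which had the highest CA1 values of Zfp300 (40.1) and Lrriq1 (49.9) of that group; the LPS changes kept their signs without it.

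The rats' numbers begin with 24, 25 or 27, which the labels do not explain, and the groups were unevenly spread over these series. Among the numbers beginning with 25 (4 young LPS and 4 young vehicle rats), the sign of the LPS change was kept in 8 of 8 genes in CA1 and 8 of 8 in DG. With 24 (3 young LPS rats and 1 young vehicle rat) it was kept in 8 of 8 in CA1 and 6 of 8 in DG, and with 27 (1 young LPS rat and 3 young vehicle rats) in 7 of 8 in CA1 and 5 of 8 in DG. Within the series of 25 Zfp300 changed by -1.27 in CA1 and 0.55 in DG, and Gstt1 by 0.13 in CA1 and -0.91 in DG. The CA1 change of Gstt1 was 1.69 with 24, where it is set against the single rat 2410. The same young rats gave the signs that chose the genes, so these counts of kept signs are a description.

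Lists of genes tied to the members by complex, process, cell structure, family or symbol were counted without the members. No gene of any list passed the test for LPS or age in either region. Of 10 tested CCR4-NOT genes beside Cnot2, 9 were lower and 1 higher with LPS in CA1 (median change -0.11, against 0.01 over all genes), and 4 were lower and 6 higher in DG (median 0.03, against -0.0041). Cnot6, a deadenylase subunit, had -0.31 in CA1 and 0.13 in DG, and Cnot1, the scaffold of the complex, had -0.09 and -0.15. Of 18 genes of proteins that act beside that complex in poly(A) tail shortening or the binding of its targets, 12 were lower in CA1 and 10 in DG, with Btg1 at -0.26 in CA1 and Pan3 at 0.21 in DG. The direction of Cnot2 was thus shared by most of its complex in CA1 and by about as many genes as not in DG.

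Centriole and satellite genes leaned the way of Lrrcc1 and Ccdc112 in both regions. Of 31 tested, 24 were lower and 7 higher with LPS in CA1 (median -0.14, against 0.01 over all genes). In DG 4 were lower and 27 higher (median 0.11, against -0.0041). Both a lower CA1 and a higher DG mean were found in 22 of the 31, and in 4498 of all 14637 genes. Cep120, needed for centriole elongation, had -0.20 in CA1 and 0.01 in DG, and Cep83, a distal appendage gene, had -0.22 in CA1 and 0.53 in DG (SE 0.13, adjusted p = 0.515 by limma). With age, 22 of the 31 were higher in CA1 (median 0.10) and 18 in DG (median 0.02). Of the motile cilia genes, 11 of 25 were higher with LPS in CA1 and 9 of 17 in DG, with Spef2, a sperm and cilia axoneme gene, at -0.66 in CA1 and the radial spoke gene Rsph9 at -0.34 in DG.

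The remaining lists were the gene families of Zfp300, Gstt1 and Mfsd3. Of 224 tested genes with a numbered Zfp symbol, 135 were lower and 89 higher in CA1 (median -0.11), and of 225 in DG 96 were lower and 129 higher (median 0.03); Zfp148 had -0.38 in CA1 and Zfp329 0.38 in DG. Of 15 glutathione transferase genes beside Gstt1, 8 were higher in CA1 (median 0.09) and 13 lower in DG (median -0.07), with the microsomal transferases Mgst3 at 0.30 in CA1 and Mgst1 at -0.40 in DG. Of 15 Mfsd transporter genes beside Mfsd3, 11 were higher in CA1 (median 0.11) and 10 lower in DG (median -0.08), with Mfsd12 at 0.25 in CA1 and Mfsd14a at -1.75 (SE 0.70) in DG.

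The genes most like each member were found by r over all 44 libraries after the mean of each region and group was subtracted, 2 for each. Cnot2 was nearest to Zfp386 (0.84) and Edrf1 (0.84), Lrrcc1 to Rabgap1 (0.82) and Eif2s3y (0.80), and Ccdc112 to Lrif1 (0.77) and Ccdc59 (0.77). Zfp386 itself had LPS changes of -0.39 in CA1 and 0.38 in DG. Tmem8b was nearest to Fam110a (0.78) and Klf16 (0.77), Gstt1 to Bmp6 (0.76) and Ghdc (0.75), and Mfsd3 to Fastk (0.70) and Pla2g6 (0.69). Fam110a had 0.52 in CA1 and -0.18 in DG. Lrriq1 was nearest to Etv1 (0.72) and Slc35f1 (0.70), which had LPS changes of 0.01 and -0.03 in CA1, and Zfp300 to Prmt3 (0.66) and H2afy2 (0.63). Without the CA1 library of rat 2532 these r ran from 0.57 for H2afy2 to 0.82 for Zfp386. Likeness within groups thus did not always go with a like LPS change.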

How the data were processed

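Each region has 1 table deposited by the authors, whose unit is a signal: read counts scaled by normalization; STAR, Partek, DESeq2 and build rn6 are named, without versions or roles, per the submitters' processing notes. The sources used here state no annotation, filter or strand setting. Library values are whole multiples of 1 step, the value of 1 read (0.818 to 1.46 in CA1, 0.659 to 1.32 in DG). Division by it gave whole reads, within 0.1, for 99.66% of CA1 values and 99.98% of DG values, which edgeR 4.0.16 and DESeq2 1.42.0 used as alternatives.

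A gene was tested if 6 or more libraries reached a value of 10, 14915 in CA1 and 14904 in DG, with limma 3.58.1 (trend and robust options, R 4.3.3) on log2(value + 1), 3 groups in 1 fit per region, Benjamini-Hochberg adjustment over all genes and a threshold of 0.05. The region difference used CA1 minus DG within each rat, as a block: the number in the titles marks the rat, and both regions came from its hippocampus. The scripts were tested on simulated data. Groups came from the sample labels, where each library is a different rat within a region.

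The 8 genes, the gene lists and the tests were chosen with earlier results of these data known. The text names the members, from each list and region the tested gene of smallest unadjusted LPS p, and the 2 genes most alike to each member. Alternatives changed the pseudocount (0.25, 5), filter (none, mean of at least 50), scaling (TMM), groups fitted, added terms (number series, dissection score, first component), tool, block and each rat in turn.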

Additional observations from a re-analysis of the deposited data

Results flagged for a closer look

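In CA1 the highest of the 6 aged vehicle values of Lrrcc1, 280 normalized reads in rat 2532, lay far from the others, of which the next was 124 and the lowest 83.5. Among 48 groups examined (8 genes, 2 regions, 3 groups), it was the only group whose highest or lowest library stood off in this way. Chance gives about 1 in 20, so 1 such group among 48 is not more than chance gives. Rat 2532 is the CA1 library with the first component score of 0.96. The age change of Lrrcc1 in CA1 was 0.21 with it and -0.0047 without it.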

How the results depend on the processing

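All 16 LPS changes of the 8 genes in CA1 and DG kept their signs over the 524 values of the alternatives, rats left out included. These signs chose the genes, so this is a description. Some alternatives could not alter these changes, such as another filter or an aged rat left out. Counts of called genes moved more. For young LPS against aged vehicle in CA1 the count of 1302 became 3 without a filter, 0 with only the 2 groups compared, 2910 with the number series, 0 with the first component, 2144 by edgeR, 3263 by DESeq2 and 0 to 3399 with a rat left out. In DG the count of 2 became 0 with pseudocount 0.25, no filter or a mean of at least 50, 4 with 2 groups, 8 with the series, 1 by edgeR, 22 by DESeq2 and 0 to 3 with a rat left out. For LPS in CA1 DESeq2 called 1 gene, and leaving out rats gave 0 to 1. For the region difference of LPS the count of 1 became 0 with pseudocount 5, no filter, a mean of at least 50, the series, the dissection score and the fit with no replicate block, and 0 to 2 with a rat left out. For age in CA1 the count of 2 became 1 with a mean of at least 50, 2 groups or the first component, 0 with the series or the dissection score, 7 by DESeq2 and 0 to 3 with a rat left out; in DG it became 0 with a mean of at least 50, 1 with 2 groups or the series and 4 by DESeq2. The CA1 calls of Mfsd3, Tmem8b and Lrrcc1 against aged rats ended without a filter, with 2 groups and with the first component, and Zfp300 passed without rat 2403.

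Several changes against or with age turned round. With the first component, young LPS against aged vehicle in CA1 was 0.050 for Ccdc112 (otherwise -0.28), 0.078 for Cnot2 (-0.19) and -0.070 for Gstt1 (0.41), and Lrrcc1 with age was -0.17 in CA1 and -0.074 in the region difference. With the series, age gave -0.053 for Tmem8b in CA1 and, in DG, 0.051 for Cnot2 and -0.11 for Zfp300. With the dissection score, age in DG was 0.018 for Cnot2, -0.042 for Gstt1 and 0.0084 for Lrrcc1. Age in DG was also -0.0013 for Gstt1 and -0.058 for Zfp300 by edgeR, and for Zfp300 -0.057 by DESeq2 and -0.0031 with pseudocount 5. With a rat left out, age in CA1 ran from -0.072 to 0.21 for Gstt1, -0.0047 to 0.34 for Lrrcc1 and -0.048 to 0.039 for Tmem8b. In DG it ran from -0.042 to 0.030 for Cnot2, -0.024 to 0.20 for Gstt1, -0.070 to 0.039 for Lrrcc1, -0.025 to 0.16 for Lrriq1 and -0.11 to 0.15 for Zfp300. The region difference of age ran from -0.13 to 0.20 for Gstt1, and Mfsd3 against aged rats in DG from -0.037 to 0.064. The causes were not tested. Zfp300 and Lrriq1 have no value under a mean of at least 50. Depth limits Zfp300 and Lrriq1 most.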
